A study of Homo sapiens with 6 samples.

Results

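The genes described here are 35 complement components, regulators and receptors, matched by symbol to the rows of a gene count table of HepG2 cells. Of the 35, 32 had a row among the 34036 genes of the table and 26 held enough counts to be tested. C6, C9, CFHR3, CFHR4, CFP and C3AR1 had a row but too few counts for a test, and CFHR2, CFHR5 and FCN3 were not analysed here. The list holds 30 secreted proteins, 3 membrane regulators and 2 receptors. HepG2 is a human line from a hepatocellular carcinoma, and RNA was sequenced in bulk in 3 libraries per condition. The siCON cells received a non-targeting siRNA. The siDGk cells received a pool of siRNAs against DGUOK, the gene for mitochondrial deoxyguanosine kinase. Both groups shared the cell line, the lipid transfection reagent, the serum-containing medium and the harvest at 48 h after transfection, so the comparison asks how acute loss of DGUOK RNA changed transcript levels. The groups rest on sample titles and library names, because the treatment label names the control siRNA for all 6 libraries. A carcinoma line does not stand for hepatocytes in a liver, where other cell types also shape complement output, and a pooled siRNA does not separate the effects of its single duplexes. The labels number the libraries of a condition without saying that they came from separate cultures, so the p values measure the spread between these libraries, which may be technical. Total counts ran from 10527216 in siCON replicate 3 to 21334876 in siDGk replicate 3.

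Complement is a cascade of plasma proteins, most of which are made by hepatocytes. The classical, lectin and alternative pathways each assemble enzymes that cleave C3 and then C5, and the terminal components build a pore in the target membrane. Soluble inhibitors restrain the cascade in plasma, whereas CD46, CD55 and CD59 protect the membrane of the cell that carries them.

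The unit of level is CPM, a gene's count per 1000000 counts of the TMM-adjusted library size. Differences are log2 fold changes (log2FC) of siDGk against siCON with their standard errors (SE). Calls required an adjusted p below 0.05 together with a log2FC beyond 0.5 in either direction, in edgeR's quasi-likelihood test run on 14476 genes. The targeted gene, DGUOK (ENSG00000114956.19, chr2:73926826-73958961 of GRCh38), was at 54.4, 53.1 and 48.2 CPM in replicates 1, 2 and 3 of siCON and at 9.08, 10.5 and 6.72 CPM in those of siDGk. All siDGk libraries were far lower, on the side that their titles give (log2FC −2.57, SE 0.19, adjusted p = 1.64e-08 in edgeR's test).

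Most secreted complement transcripts were lower in siDGk cells, whereas of the membrane regulators CD59 was called higher and CD46 and CD55 were not called. Of the 26 complement genes tested, 20 were called, beside 14.1% of all genes tested. Among these, 19 were called lower, beside 6.68% of all genes, and 1, CD59, was called higher, beside 7.42%. The median log2FC of the 26 genes was −1.0003, and that of all genes tested was 0.02. Every siDGk library lay below every siCON library for 22 of the 26 genes, a pattern shown by 17.3% of all genes, and CD59 showed the reverse pattern, as did 18.7% of all genes. At the adjusted p alone 21 complement genes passed, beside 19.7% of all genes, the added gene being CD46, whose adjusted p depended on single libraries and on the count filter. These counts describe the genes with enough reads for a test and not all 35. In bulk RNA, fewer cells of a type and less RNA per cell cannot be told apart.

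By class, 22 secreted genes were tested, of which 19 were called lower and 3 (C7, C8G and MASP2) were not called, with a median log2FC of −1.07. The 3 membrane regulators had a median of −0.20, with CD59 called higher and CD46 and CD55 not called. That median, set by CD55 with all libraries, was −0.10 without siCON replicate 2 and −0.12 without siDGk replicate 3. With 1 library left out it ranged from −0.27 to −0.10, where CD46 set the −0.27 end, without siDGk replicate 1. Of the receptors only C5AR1 was tested, and it was not called. The difference between the classes was not itself tested.

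**Figure D1:**
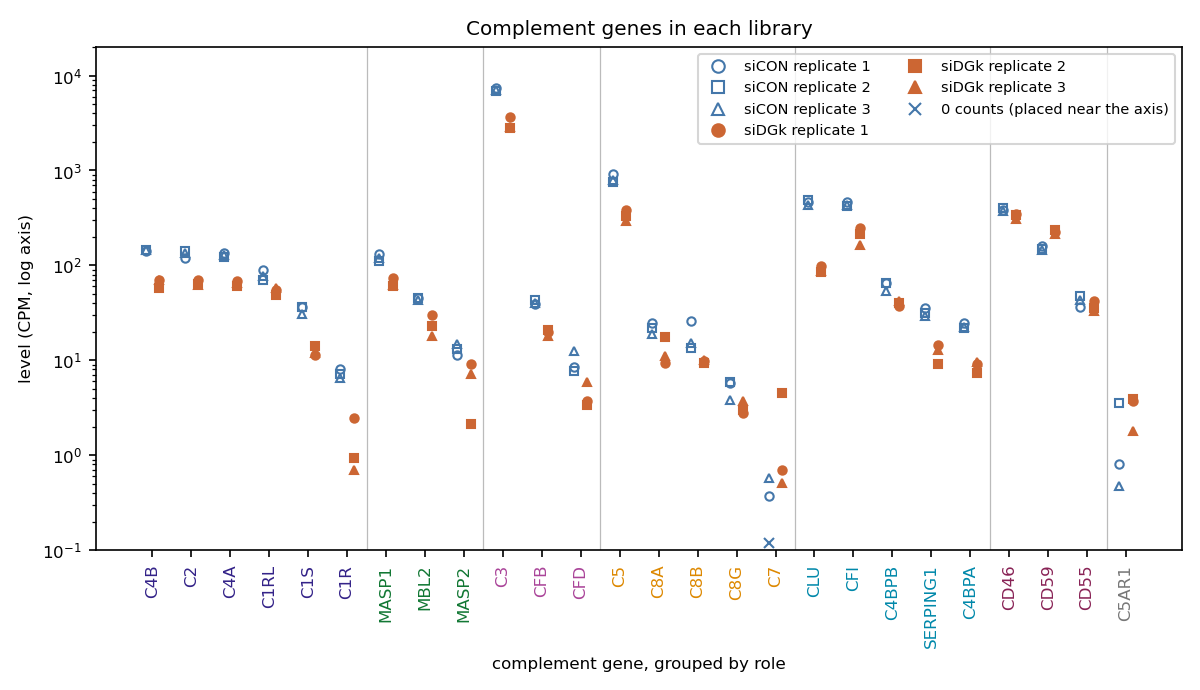
Level of the 26 tested complement genes in each library, in CPM on a log axis, grouped by role and ordered within a role by the siCON mean. Open blue symbols are siCON libraries, filled orange symbols are siDGk libraries, and a cross marks 0 counts. The orange symbols sit below the blue ones for all tested secreted genes but C7, and above them for CD59.

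Summed over the secreted genes, siCON libraries held 10290, 9409.5 and 9518 CPM (replicates 1, 2 and 3) and siDGk libraries held 4895, 3856 and 3906 CPM. The sum over CD46, CD55 and CD59 was 574, 596 and 563 CPM in siCON and 609.7, 609.6 and 557 CPM in siDGk libraries. The secreted sums of the groups stood far apart, while the membrane sums overlapped. The ratio of the secreted to the membrane sum was 17.9, 15.8 and 16.9 in siCON and 8.03, 6.33 and 7.01 in siDGk libraries. C3 took most of the secreted sum in each library. Without C3 the ratio was 4.89, 4.31 and 4.53 in siCON and 2.02, 1.77 and 1.82 in siDGk libraries, so that the groups still did not overlap.

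**Figure D2:**
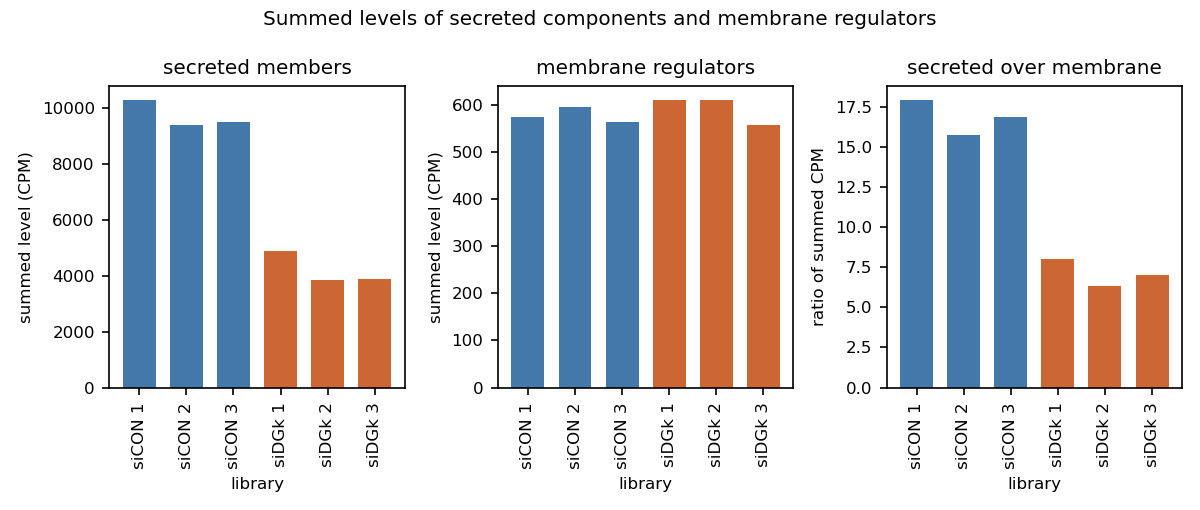
Summed CPM of the secreted complement genes (left), summed CPM of CD46, CD55 and CD59 (middle) and the ratio of these sums (right) in each library. Bars start at 0, with siCON in blue and siDGk in orange. The ratio lies between 15.8 and 17.9 in siCON libraries and between 6.33 and 8.03 in siDGk libraries.

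To compare levels between genes, CPM was divided by the union exon length in kilobases (RPKM). On that scale the mean siCON level was 613 RPKM for C3, followed by 83.0 for CFI, 73.5 for CLU, 48.8 for C5 and 24.7 for CD46. These 5 genes kept the same places when the longest transcript gave the length. Lower in the order, C4B, C4BPB, C2 and C4A lay between 18.0 and 20.1 RPKM, with siCON libraries that overlapped between neighbours in this order. The places of C4B and C2 changed with the length used. Reads that align to both C4 copies are left out by default, so the levels and places of C4A and C4B may be too low. Reads on exons shared with other genes are left out as well, which bears on C2 and CFI. In siDGk cells the mean level was 269 RPKM for C3 and 39.2 for CFI, while CD59 (21.4), CD46 (21.2) and C5 (19.9) lay close together. With the longest transcript as the length these 3 genes stood in another order. The mean level of CLU was 14.3 RPKM in siDGk cells.

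The classical pathway starts with the C1 complex, which holds the proteases C1R and C1S and cleaves C4 and C2 to form the C3 convertase. All 6 genes of this group were called lower, beside 6.68% of all genes tested, with a median log2FC of −1.07. C1R held 150, 136 and 69 counts in siCON and 46, 15 and 15 counts in siDGk libraries (replicates 1, 2 and 3), or 8.01, 7.25 and 6.58 CPM against 2.49, 0.923 and 0.690 CPM. All siDGk values were low and siDGk replicate 1 was the highest of them. The log2FC was −2.41 (SE 0.53, adjusted p = 0.00288 in edgeR's test), and the few reads leave its size uncertain, since DESeq2 with shrinkage gave −1.17, and omitting siDGk replicate 1 gave −3.19 and omitting siDGk replicate 3 gave −2.09, the ends of the range with 1 library left out. C1S was 36.7, 36.6 and 30.4 CPM in siCON and 11.5, 14.2 and 11.8 CPM in siDGk libraries. Its groups were well separated, with a log2FC of −1.47 (SE 0.19, adjusted p = 1.43e-05 in edgeR's test).

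C1RL, a protease related to C1R, was 89.1, 70.9 and 77.2 CPM in siCON and 55.7, 48.9 and 57.3 CPM in siDGk libraries. This was the smallest decrease of the classical genes, at a log2FC of −0.55 (SE 0.12, adjusted p = 0.00347 in edgeR's test), close to the threshold of 0.5. The threshold was missed without siCON replicate 1, where the log2FC was −0.45, and without siDGk replicate 2, where it was −0.48. C1R, C1S and C1RL are neighbours on chromosome 12, and 17.6% of the exon bases of C1RL are shared with C1R or an antisense gene in Gencode 44. By its defaults the counting ignored strand and dropped reads on several genes, so the counts of C1R and C1RL are uncertain. It used the older Gencode 27, in which overlaps can differ from those given here. Relative to C1S, the CPM of C1R was 0.218, 0.198 and 0.216 in siCON and 0.217, 0.0649 and 0.0584 in siDGk libraries, and siDGk replicate 1 lay within the siCON range.

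The interval from C1S to C1RL held 2 other genes tested, with a median log2FC of −0.57. LPCAT3, a phospholipid acyltransferase gene on the other strand that overlaps the C1S locus, was called lower at −0.52 (SE 0.14, adjusted p = 0.0142 in edgeR's test), close to the threshold. This call was lost without siCON replicate 1 (adjusted p = 0.0525), without siCON replicate 2 (0.0546) and without siDGk replicate 3 (log2FC −0.48, adjusted p = 0.0483), within a range of 0.0314 to 0.0546 for the adjusted p. C1RL-AS1, antisense to C1RL, had few reads and was not called (log2FC −0.62, SE 1.05).

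C2, the protease subunit of the classical convertase, was 119, 140.1 and 134 CPM in siCON and 69.8, 64.0 and 61.7 CPM in siDGk libraries (log2FC −1.01, SE 0.11, adjusted p = 1.35e-06 in edgeR's test). The C4 protein supplies the other subunit and comes from a pair of near-identical genes. C4A was 136, 122 and 129 CPM in siCON and 69.2, 60.1 and 64.9 CPM in siDGk libraries, and C4B was 141, 147 and 144 CPM and 70.3, 57.4 and 69.7 CPM. In both copies all siDGk libraries sat well under all siCON libraries, and the same was true of C2. The log2FC was −0.99 for C4A (SE 0.10, adjusted p = 1.14e-06 in edgeR's test) and −1.13 for C4B (SE 0.10, adjusted p = 2.96e-07 in edgeR's test).

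By default, reads that align to both C4 copies equally well are left out of the counts, so the counts of each copy are partial. The canonical transcripts of Gencode 44 have 5427 bases each and differ at 13 of them, and 88.4% of the 100-base windows of either transcript occur unchanged in the other. The read length was not known, so the window of 100 bases is a choice made here. The 40 bases of exon 26 where they differ most, all coding, are shown to mark where a read can be assigned, with the 5 differing bases in capitals (GRCh38, Gencode 44 transcripts).
C4A, chr6:31996072-31996111, plus strand: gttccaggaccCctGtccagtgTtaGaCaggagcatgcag
C4B, chr6:32028810-32028849, plus strand: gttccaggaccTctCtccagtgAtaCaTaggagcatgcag

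C2, CFB, C4A and C4B lie within chr6:31897785-32035418 of GRCh38, and all 4 were called lower. Among the 6 other genes tested in that interval, 1 (ZBTB12) was called lower and 5 were not called, with a median log2FC of −0.10. Of all genes tested, 6.68% were called lower. Between CFB and C4A, the log2FC of SKIV2L was 0.00 (SE 0.11) and that of NELFE 0.38 (SE 0.13). ZBTB12, a zinc finger gene on the other strand within the C2 locus, had −0.86 (SE 0.27). Its call was lost when siCON replicate 1 (adjusted p = 0.111) or 2 (0.0798) or siDGk replicate 1 (0.0778) or 2 (0.100) was left out, within a range of 0.0308 to 0.111 for the adjusted p. CYP21A1P, a pseudogene between the C4 copies, had a log2FC as low, −0.87, but with an SE of 0.81, and DXO and STK19 had −0.09 (SE 0.29) and −0.10 (SE 0.35). Exons of C2 and CFB overlap other annotated genes over 30.0% and 42.8% of their bases, including ZBTB12 for C2 and a readthrough gene for both, so their counts, and those of ZBTB12, are uncertain.

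**Figure D3:**
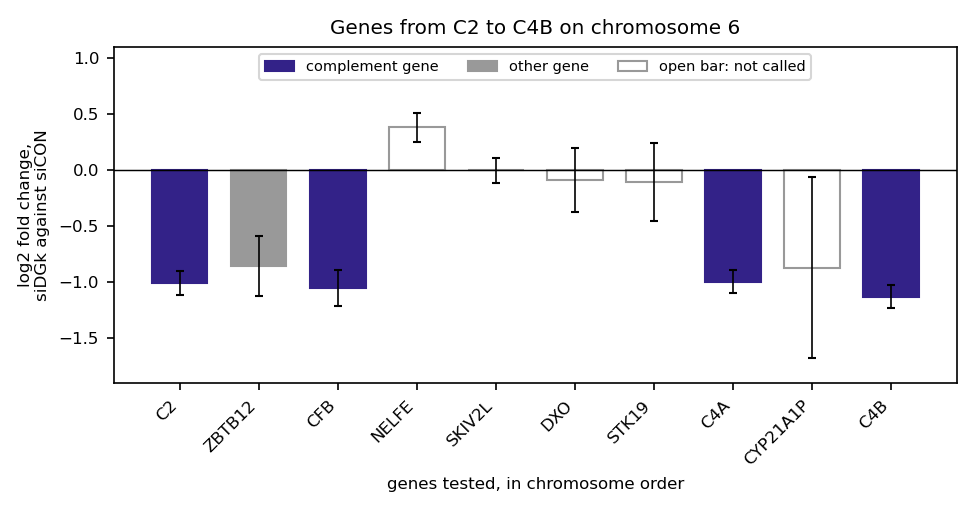
Log2 fold change, siDGk against siCON, of the 10 genes tested from C2 to C4B on chromosome 6, in chromosome order, with standard errors (lines). Dark bars are complement genes, grey bars are other genes and open bars are genes not called. The 4 complement genes lie between −1.13 and −0.99, and the 6 other genes between −0.87 (CYP21A1P) and 0.38 (NELFE).

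In the lectin pathway, mannose-binding lectin (MBL2) recognises sugars on microbes and the MASP proteases cut C4 and C2. MASP1 was 132, 112 and 120.2 CPM in siCON and 74.1, 60.2 and 61.9 CPM in siDGk libraries (log2FC −0.89, SE 0.11, adjusted p = 1.17e-05 in edgeR's test). MBL2 was 45.6, 44.9 and 43.1 CPM in siCON and 29.7, 23.0 and 18.1 CPM in siDGk libraries (log2FC −0.92, SE 0.18, adjusted p = 0.000993 in edgeR's test). The siCON libraries were tight for MBL2 and the siDGk libraries more spread, without overlap. MASP2 was 11.5, 13.1 and 15.0 CPM in siCON and 9.19, 2.15 and 7.22 CPM in siDGk libraries, where replicate 2 held 35 counts against 170 and 157 in the others. With this spread MASP2 was not called (log2FC −1.08, SE 0.39, adjusted p = 0.0577 in edgeR's test). It was called with no count filter (adjusted p = 0.00755), with replicate number as a block (adjusted p = 0.0197) and without siDGk replicate 1 (adjusted p = 0.0330), over a range of 0.00755 to 0.199 across its alternatives. Without the low siDGk replicate 2, its log2FC was −0.68.

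C3 is the protein on which all pathways converge, and per length it had the highest level of the list in both groups. C3 was 7484, 6838 and 6964 CPM in siCON and 3666, 2778 and 2892 CPM in siDGk libraries. The groups were separated by a wide gap, siDGk replicate 1 being the highest of its group. The log2FC was −1.19 (SE 0.09, adjusted p = 1.48e-08 in edgeR's test), from 7095 ± 343 to 3112 ± 483 CPM (SD, n = 3).

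In the alternative pathway the protease factor D (CFD) cleaves factor B (CFB) bound to C3b, and the larger fragment of factor B stays with C3b as the C3 convertase. CFB was 39.2, 43.1 and 39.8 CPM in siCON and 20.0, 20.6 and 18.2 CPM in siDGk libraries (log2FC −1.05, SE 0.16, adjusted p = 9.58e-05 in edgeR's test). CFD was 8.55, 7.73 and 12.4 CPM in siCON and 3.73, 3.39 and 5.94 CPM in siDGk libraries (log2FC −1.12, SE 0.36, adjusted p = 0.0342 in edgeR's test). In both groups replicate 3 was the highest for CFD. Exons of MED16 on the other strand share 14.0% of its bases in Gencode 44. Its call was lost when siDGk replicate 1 (adjusted p = 0.113) or 2 (0.100) or siCON replicate 1 (0.0682) or 3 (0.196) was left out, and its adjusted p ran from 0.0167 to 0.196 over its alternatives. CFP, which encodes the convertase stabiliser properdin, had 4 counts in all 6 libraries together.

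In the terminal pathway, cleavage of C5 releases the fragment that starts the membrane attack complex, which C6, C7, C8 and C9 complete. C5 was 924, 755 and 793 CPM in siCON and 384, 333 and 294 CPM in siDGk libraries. All siCON libraries lay well above all siDGk libraries (log2FC −1.29, SE 0.10, adjusted p = 1.95e-08 in edgeR's test). C8 is built of 3 chains from separate genes. C8A was 24.9, 21.6 and 19.0 CPM in siCON and 9.46, 17.7 and 11.2 CPM in siDGk libraries (log2FC −0.78, SE 0.24, adjusted p = 0.0306 in edgeR's test). C8B was 26.1, 13.5 and 15.3 CPM in siCON and 9.83, 9.42 and 10.2 CPM in siDGk libraries (log2FC −0.90, SE 0.26, adjusted p = 0.0206 in edgeR's test). C8A had 1 high siDGk library (replicate 2) and C8B 1 high siCON library (replicate 1), yet neither gene overlapped between groups.

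Both C8 calls were weak. That of C8A was lost when siCON replicate 1 (adjusted p = 0.132), 2 (0.0657) or 3 (0.0546) or siDGk replicate 1 (0.137) or 3 (0.0828) was left out, with 0.00412 as the lowest adjusted p of its alternatives. That of C8B was lost without siCON replicate 1 (log2FC −0.55, adjusted p = 0.219), siDGk replicate 1 (0.0646) or siDGk replicate 2 (0.0520), with 0.00619 as the lowest. C8G, the third chain, was 5.77, 5.97 and 3.81 CPM in siCON and 2.76, 3.02 and 3.68 CPM in siDGk libraries and was not called (log2FC −0.72, SE 0.45).

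The remaining terminal genes were hardly detected. C7 held 7, 0 and 6 counts in siCON and 13, 74 and 11 counts in siDGk libraries, and its positive log2FC (2.63, SE 1.41) came with an adjusted p of 0.224 in edgeR's test. It rested on siDGk replicate 2, without which the log2FC was 0.96, and was 0.38 with DESeq2 shrinkage. C6 had 48 counts in all 6 libraries together and C9 had 0, as did CFHR4 among the regulators, whereas CFHR3 had 10.

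Fluid-phase regulators included CLU, which had the lowest adjusted p of the list. It encodes clusterin, a secreted chaperone that also blocks assembly of the terminal complex. CLU was 466, 487 and 432 CPM in siCON and 98.2, 84.3 and 86.8 CPM in siDGk libraries. Every siDGk library was far below every siCON library. The log2FC was −2.36 (SE 0.09, adjusted p = 2.76e-12 in edgeR's test), with a range of −2.45 to −2.32 when 1 library was left out. Ranked from the most negative of the 14476 log2FCs, CLU stood at place 121 and C1R at place 117. CLU was the more negative of this pair without siCON replicate 1, without siDGk replicate 2 and without siDGk replicate 3. The same held with DESeq2 shrinkage (CLU −2.32, C1R −1.17).

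CFI, the protease that inactivates C3b and C4b, was 467, 425 and 433 CPM in siCON and 247, 214 and 165 CPM in siDGk libraries (log2FC −1.08, SE 0.11, adjusted p = 1.02e-06 in edgeR's test). SERPING1, the C1 inhibitor, was 35.5, 31.4 and 29.6 CPM in siCON and 14.6, 9.05 and 12.8 CPM in siDGk libraries (log2FC −1.40, SE 0.21, adjusted p = 7.06e-05 in edgeR's test). Neither gene overlapped between groups, although the siDGk libraries were more spread for CFI. In Gencode 44 another gene on the same strand shares 29.4% of the CFI exon bases, whereas the SERPING1 exons overlap no other gene.

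C4b-binding protein is built of an alpha chain (C4BPA) and a beta chain (C4BPB) from neighbouring genes and serves as a cofactor for CFI. C4BPA was 24.9, 21.6 and 22.3 CPM in siCON and 9.08, 7.32 and 9.52 CPM in siDGk libraries (log2FC −1.41, SE 0.22, adjusted p = 0.000127 in edgeR's test). C4BPB was 65.0, 64.5 and 53.7 CPM in siCON and 37.6, 40.01 and 42.4 CPM in siDGk libraries (log2FC −0.61, SE 0.13, adjusted p = 0.00257 in edgeR's test). Both chains fell, and the ratio of C4BPA to C4BPB in CPM was 0.383, 0.335 and 0.416 in siCON and 0.241, 0.183 and 0.225 in siDGk libraries, with no overlap. The difference between the chains was not tested.

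The membrane regulators CD46 and CD55 lie downstream of the C4BP genes on chromosome 1. CD46, a cofactor for CFI on the cell surface, was 379, 398 and 374 CPM in siCON and 344, 335 and 308 CPM in siDGk libraries. The siDGk libraries were all lower, but by a small step, with a log2FC of −0.22 (SE 0.08, adjusted p = 0.0482 in edgeR's test), short of the fold threshold. At the adjusted p alone it no longer passed when siCON replicate 1 (adjusted p = 0.0997), 2 (0.151) or 3 (0.125) or siDGk replicate 2 (0.0916) or 3 (0.182) was left out, nor with no count filter (0.115), within a range of 0.0136 to 0.182 over its alternatives. CD55, which speeds the decay of convertases, was 36.3, 47.9 and 43.1 CPM in siCON and 42.5, 35.8 and 32.7 CPM in siDGk libraries, where the groups overlapped (log2FC −0.20, SE 0.16, adjusted p = 0.447 in edgeR's test). With 1 library left out its log2FC ran from −0.33 to −0.10.

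CD59 blocks the insertion of C9 into the membrane and, of the 35 listed genes, was the one called higher. CD59 was 158, 150.04 and 146 CPM in siCON and 223, 238 and 216 CPM in siDGk libraries. All siDGk libraries were high and close to each other. The log2FC was 0.57 (SE 0.08, adjusted p = 5.78e-05 in edgeR's test), from 152 ± 6.27 to 226 ± 11.6 CPM (SD, n = 3), and it kept its call in each alternative fit that used the same thresholds. At an absolute log2FC above 1 it would not be called. The ratio of C5 to CD59 in CPM was 5.83, 5.03 and 5.43 in siCON and 1.72, 1.40 and 1.36 in siDGk libraries. Both terms of that ratio moved, C5 down and CD59 up, and the groups lay far apart.

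Receptors for the released fragments were scarce. C5AR1 held 15, 67 and 5 counts in siCON and 69, 64 and 39 counts in siDGk libraries, with overlapping groups and no call. C3AR1 had 2 counts in all 6 libraries together.

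**Figure D4:**
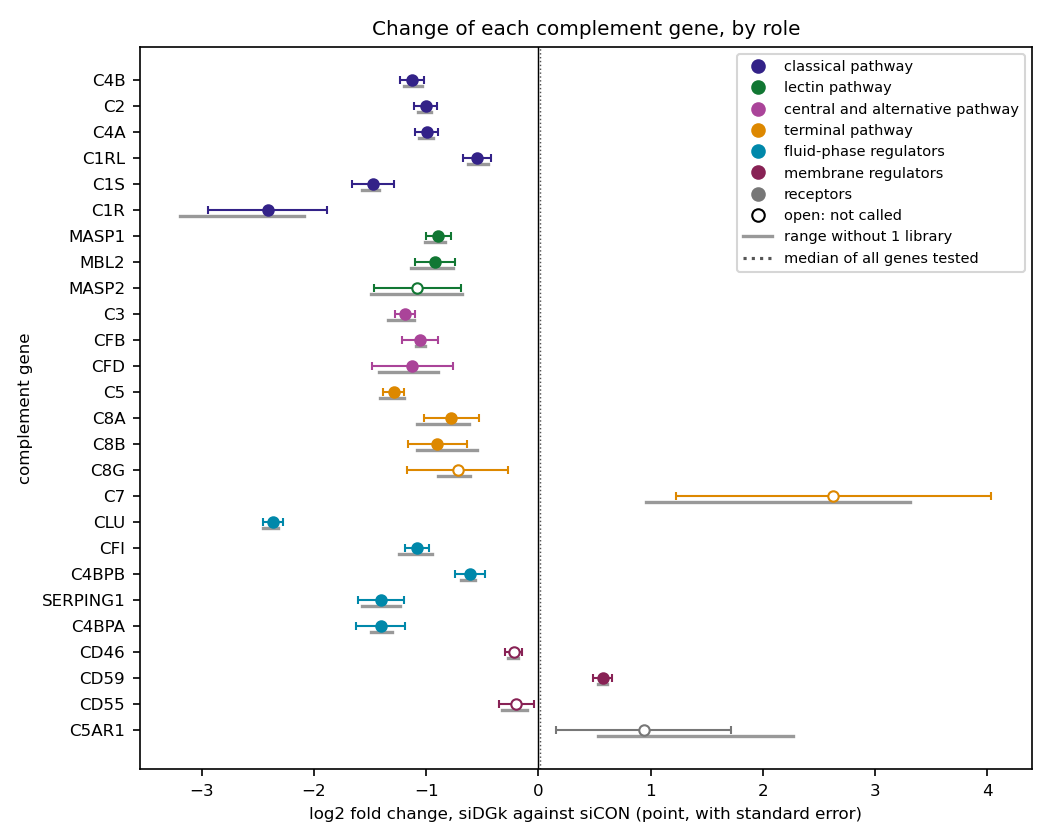
Log2 fold change, siDGk against siCON, of the 26 tested complement genes, colored by role, with lines for the standard error. Filled points were called and open points were not, the grey line under each point spans the values without 1 library, and the dotted line marks the median of all genes tested (0.02). All filled points but CD59 (0.57) lie between −2.41 and −0.55.

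Promoter sequences were compared because many of these genes moved together. RefSeq promoter windows of 300 bases (250 before and 50 after the start, GRCh38.p14) matched 23 of the 35 genes by symbol, with 35 windows in all. Unmatched were C1S, C3, C4A, C4B, C8G, CFHR2, CFHR3, CFHR4, CFHR5, FCN3, SERPING1 and CLU. Motifs were searched on both strands by letters alone, and a gene counted when any of its windows held the letters. The STAT motif TTCNNNGAA occurred in 8 of 23 complement genes (34.8%), beside 9.38% of the 27305 genes with a window. By windows the shares were 28.6% of 35 and 7.66% of 35116. The C/EBP motif TTGCNNAA occurred in 5 (21.7%, beside 12.7%), the IRF motif GAAANNGAA in 4 (17.4%, beside 9.86%) and the AP-1 motif TGANTCA in 3 (13.0%, beside 9.37%). The NF-kB motif GGGANTTCC occurred in 0 of the 23, beside 2.23% of all genes. No match in the complement genes overlapped a match of another of these motifs. A match is a string of letters and does not show binding. The windows of C1R, CFB and MBL2, all called lower, and of CD59, called higher, are printed as examples of windows that hold a match, with matches in capitals.
C1R, chr12:7092396-7092695, minus strand: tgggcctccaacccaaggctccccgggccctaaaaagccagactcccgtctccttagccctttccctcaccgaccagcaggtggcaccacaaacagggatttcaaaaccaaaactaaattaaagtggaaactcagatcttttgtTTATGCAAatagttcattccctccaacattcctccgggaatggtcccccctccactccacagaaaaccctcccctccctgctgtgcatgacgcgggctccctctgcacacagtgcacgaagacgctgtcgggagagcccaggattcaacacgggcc
CFB, chr6:31945845-31946144, plus strand: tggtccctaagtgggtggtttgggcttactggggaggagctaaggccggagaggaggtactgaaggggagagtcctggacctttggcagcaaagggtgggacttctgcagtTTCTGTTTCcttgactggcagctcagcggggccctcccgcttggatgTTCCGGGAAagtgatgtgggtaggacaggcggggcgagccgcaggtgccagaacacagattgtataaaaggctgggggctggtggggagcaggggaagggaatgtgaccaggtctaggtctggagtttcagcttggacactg
MBL2, chr10:52772735-52773034, minus strand: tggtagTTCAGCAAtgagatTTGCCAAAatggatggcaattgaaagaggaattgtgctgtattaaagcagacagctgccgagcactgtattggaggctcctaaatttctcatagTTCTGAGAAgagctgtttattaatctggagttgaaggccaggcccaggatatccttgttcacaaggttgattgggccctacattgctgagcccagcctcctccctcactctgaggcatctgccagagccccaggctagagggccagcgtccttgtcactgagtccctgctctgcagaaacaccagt
CD59, chr11:33736374-33736673, minus strand: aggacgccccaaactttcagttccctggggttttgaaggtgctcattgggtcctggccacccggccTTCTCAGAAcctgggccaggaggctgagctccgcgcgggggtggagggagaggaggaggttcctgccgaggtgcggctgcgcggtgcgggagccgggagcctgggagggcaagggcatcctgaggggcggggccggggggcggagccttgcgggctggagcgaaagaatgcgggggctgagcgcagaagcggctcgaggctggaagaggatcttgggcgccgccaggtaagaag
The capitals mark a C/EBP match in C1R, an IRF and then a STAT match in CFB, a pair of C/EBP matches and a STAT match in MBL2, and a STAT match in CD59. The STAT match of C1R lay in another of its windows, and CD59 held AP-1 and C/EBP matches in windows not printed here. Besides genes called lower, the genes with STAT letters were CD59, called higher, and C7 and MASP2, which were not called. The part of these motifs in the changes was not tested. Of the 13 genes with a window that were called lower, 5 held the STAT motif (38.5%). The IRF and C/EBP motifs each occurred in 3 of the 13 (23.1%), the AP-1 motif in 1 (7.69%) and the NF-kB motif in 0.

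Beyond these 35 genes, 30 further complement genes were listed, of which 26 had a row and 13 were tested. Among the 13, 5 were called lower and 1 higher, beside 6.68% and 7.42% of all genes tested, with a median log2FC of −0.51. VTN encodes vitronectin, an inhibitor of the terminal complex, and was 401, 376 and 351 CPM in siCON and 129, 105 and 113 CPM in siDGk libraries (log2FC −1.70, SE 0.09). PROS1 encodes protein S, which circulates bound to C4b-binding protein, and showed log2FC −1.01 (SE 0.08). CPN1 and CPN2, the subunits of the carboxypeptidase that inactivates C3a and C5a, had log2FC −1.03 (SE 0.22) and −1.53 (SE 0.27). ITGB2, the beta chain of complement receptor integrins, had −0.52 (SE 0.13), and missed the fold threshold without siCON replicate 2 (−0.46) or siDGk replicate 2 (−0.49). CD93, once described as a receptor for C1q, was the gene called higher, from 1.28, 0.320 and 0.477 CPM in siCON to 9.89, 9.48 and 10.2 CPM in siDGk libraries. It held 24, 6 and 5 counts in siCON libraries and passed the count filter only with its siDGk libraries, which favoured a call of higher.

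Of 19 genes for receptors and factors listed as acting on hepatic complement genes, 18 were tested, with 4 called lower and 1 higher (beside the same 6.68% and 7.42% of all genes) and a median log2FC of −0.24. CEBPA, a hepatocyte transcription factor, was 116, 119 and 129 CPM in siCON and 62.5, 49.0 and 55.8 CPM in siDGk libraries (log2FC −1.12, SE 0.11). NR1H4, the bile acid receptor FXR, had −1.69 (SE 0.24) and HNF4A −0.51 (SE 0.08), the latter missing the fold threshold without siCON replicate 1 (−0.46) or siDGk replicate 3 (−0.47). The IL-6 receptor chains went apart, IL6R with 1.00 (SE 0.15) and IL6ST with −0.65 (SE 0.11). STAT3 overlapped between groups, at −0.05 (SE 0.09). The part of these genes in the complement changes was not tested.

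Transcripts that mark hepatocytes moved with the secreted complement genes. Of 9 markers, all tested, 8 were called lower (ALB, APOA1, APOB, APOH, TTR, TF, AFP and FGB) and SERPINA1 was not called, beside 6.68% of all genes called lower, with a median log2FC of −1.41. Their summed level was 53857, 48001 and 47027 CPM in siCON and 27783, 24255 and 22766 CPM in siDGk libraries, and in CPM the most abundant was ALB in each siCON library and SERPINA1 in each siDGk library. SERPINA1 was 7756, 8151 and 7403 CPM in siCON and 8493, 7429 and 7704 CPM in siDGk libraries and overlapped. These genes, like the complement genes, encode plasma proteins, and their part in the complement result was not tested.

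Markers of other cell types were at low levels except LYZ. Of 8 macrophage or monocyte markers 6 had a row and 4 were tested and missed the threshold, and C1QC was at 0 in all libraries. Their summed level was 1612, 1701 and 1704 CPM in siCON and 1900, 1755 and 1768 CPM in siDGk libraries, nearly all of it LYZ, and PTPRC was at most 7.94 CPM. The 4 endothelial markers, of which 3 were tested and missed the threshold (2 with an unadjusted p under 0.05), summed to 1.66, 1.39 and 2.29 CPM in siCON and 4.48, 58.5 and 4.05 CPM in siDGk libraries. Replicate 2 of siDGk thus stood apart for these, as it did for C7 and MASP2. VWF was the most abundant there (31.4 CPM) but was at 0 in siCON replicate 3 and siDGk replicate 3, and KDR was at 0 in the siCON libraries.

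The 5 stellate cell or fibroblast markers summed to 11.4, 15.0 and 10.3 CPM in siCON and 35.7, 45.7 and 21.6 CPM in siDGk libraries. Of the 2 tested, COL1A1, in CPM the most abundant in each siDGk library, was called higher and PDGFRB, the most abundant in each siCON library, lower. Of all genes tested, 7.42% were called higher and 6.68% lower. The PDGFRB call was lost when siCON replicate 1 (0.0843), 2 (0.125) or 3 (0.0551) or siDGk replicate 1 (0.0559) or 3 (0.101) was left out, as adjusted p values within a range of 0.0333 to 0.125. COL3A1, which did not pass the count filter, held 0, 1 and 0 counts in siCON and 148, 254 and 9 counts in siDGk libraries, without overlap, while DCN and LUM were at 0 in the siCON libraries. Of 4 T or B cell markers 3 had a row and were tested, and CD79A was called higher, beside the same 7.42% of all genes. Their sums were 2.30, 7.41 and 6.10 CPM in siCON and 16.0, 23.2 and 17.8 CPM in siDGk libraries, CD3D being the most abundant in the siCON libraries and siDGk replicate 1, and CD79A in siDGk replicates 2 and 3. CD79A held 0, 0 and 7 counts in siCON libraries, and COL1A1 held 9, 37 and 11. Both passed the count filter only with their siDGk libraries, which favoured a call of higher. The part of the marker transcripts in the complement result was not tested, and without siDGk replicate 2 the secreted members had a median log2FC of −1.01.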

How the data were processed

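The authors deposited whole-number counts of reads per gene, not normalized, for 3 siCON and 3 siDGk libraries of HepG2 cells. They aligned paired-end reads to GRCh38 with Gencode 27 in STAR 2.6.1 after removing tRNA, rRNA, adapter and spike-in reads, took out reads of low complexity (PRINSEQ Lite 0.20.3, DUST limit 4) and counted with featureCounts 1.6.5, which ran on its defaults apart from a quality limit of Phred 10. The submitters' processing notes also name Bowtie 1.1.2. By default featureCounts ignores strand and leaves out reads with several alignments or genes.

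In R 4.3.3 with edgeR 4.0.16, filterByExpr (minimum count 10) kept 14476 of the 24670 genes with a count, TMM gave the library sizes and glmQLFit (robust) was run with condition as its one term, with Benjamini-Hochberg adjustment over all genes tested. Standard errors are the size of log2FC over the root of F. Sums and ratios of CPM, medians of lists and motif shares carry no test. Gene coordinates and exon lengths came from Gencode 44. Replicate pairs differed by more than sampling noise (chi-square over its degrees of freedom 10.8 to 24.8), which does not show that they came from separate cultures. Each library was counted as 1 sample. The fits were tested on simulated counts.

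The members and lists were chosen with earlier results of these data known. Called members were given in every library, and uncalled ones where they were the highest of their role, a neighbour or partner subunit of a called one, or changed call under an alternative; other lists were given as counts with the names of the called. STAT3, SERPINA1, C1QC, PTPRC, KDR, DCN, LUM, COL3A1 and the neighbours in the C2 to C4B and C1S to C1RL intervals were singled out after their values were seen. Alternatives were RLE or upper-quartile scaling, a table without mitochondrial genes, no count filter, a mean above 10 CPM, DESeq2 1.42.0 with and without shrinkage, the adjusted p alone, an absolute log2 fold change above 1, replicate number as a block, each library left out, and the longest transcript as the length. For called genes outside the 35, each library was left out as well, which was chosen after seeing the data.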

Additional observations from a re-analysis of the deposited data

How the results depend on the processing

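Over 359 alternative fits of single complement genes, 342 kept the direction and the side of the threshold, 14 lost a call, 3 gained one and 0 changed direction. All these fits used the same thresholds, and a gene that stayed uncalled counted as kept. For 21 of the 26 genes none of these fits changed the call; the exceptions were C1RL, C8A, C8B, CFD and MASP2. An absolute log2 fold change above 1 left 12 complement genes called, 0 higher and 12 lower, beside 5.66% of all genes tested, since CD59 and the smaller decreases lie under that threshold by construction. DESeq2 with shrinkage moved the median of the secreted members to −0.96, since shrinkage draws estimates towards 0. With 1 library left out, the calls numbered 16 to 19, with 1 higher in each fit and 15 to 18 lower, beside 11.1% to 12.7% of all genes tested in those fits, the secreted median lay between −1.11 and −1.004, and the membrane median between −0.27 and −0.10. At a mean above 10 CPM, 18 of 20 complement genes tested were called, beside 19.4% of the 9230 genes. With no count filter, 21 of 30 complement genes tested were called, beside 8.8% of the 24670 genes. With C4A and C4B summed as 1 gene, an alternative chosen after seeing the data, 19 were called, beside 14.1% of all genes. With replicate number as a block (paired fit), 21 were called, 1 higher and 20 lower, beside 14.3% of all genes, MASP2 being the addition, and the medians were −1.08 and −0.20. The numbers did not pair the libraries: the correlation across genes of same-numbered siCON and siDGk libraries, after removing group means, was 0.024, 0.017 and −0.0022. Low counts limit C1R, C8G, CFD, C7 and C5AR1 most. Other scalings moved the median of all genes by −0.00828 (RLE) and 0.00061 (upper-quartile) on the log2 scale, and leaving out mitochondrial genes by −0.0102.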
